A study of Mus musculus with 12 samples.

Results

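Glycolysis turns glucose into pyruvate in the cytosol, and the genes examined here are the 32 genes that encode its transporters, enzymes and regulators and the enzymes that decide where pyruvate goes next. They were chosen by name as members of the pathway, with earlier results of these data known. All 32 were found among the 32699 gene symbols of the count table, and all 32 were among the 19125 genes with enough counts to be tested.

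The samples were B cells from mouse spleen, 12 RNA-seq libraries in 4 groups of 3. Cells were labelled wild type (WT) or knockout (KO) for CHD4, the ATPase of the NuRD chromatin remodelling complex. Each genotype was profiled unstimulated (0 hr) and after 48 hr in culture with lipopolysaccharide (LPS) at 10 µg/ml and interleukin 4 (IL-4) at 25 ng/ml, which together drive B cells to grow, divide and switch antibody class. The series asks what CHD4 does in B cell development and in the antibody response. The Cre driver, strain, age and number of mice are not given in the sources used here.

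In glycolysis, glucose is carried into the cell, trapped by phosphorylation, split into 3-carbon sugars and oxidised to pyruvate, with a net gain of ATP. Most steps can be run by several isozymes, products of separate genes that differ in affinity, regulation and tissue. Pyruvate is either reduced to lactate and exported or passed into mitochondria, where the pyruvate dehydrogenase complex feeds it to the citric acid cycle and pyruvate dehydrogenase kinases switch that complex off. Resting lymphocytes keep this pathway low, and activated lymphocytes are known to raise it.

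Library totals were 39 to 53.2 M estimated counts. Levels are given in CPM, a gene's counts relative to the library's total on a fixed scale, after edgeR's TMM scaling of the totals, and changes as log2 fold changes with their standard error (SE) from edgeR's quasi-likelihood test, with p-values adjusted by Benjamini and Hochberg over all 19125 genes. The threshold for a call was an adjusted p of 0.05, and only called genes are said to rise or fall. Values after ± are SDs over 3 libraries. The labels do not say whether libraries came from separate mice, so a p-value measures only the spread between these samples. Summed B cell markers were at 5510 to 9745 CPM in every library. Single markers moved both ways: of the 8, 5 fell at 48 hr in each genotype (Cd79a, Pax5, Cd22, Blk and Ebf1) and 1 rose (Ms4a1). Summed markers of T, NK, myeloid, erythroid and platelet cells had higher group means at 0 hr than at 48 hr in each genotype. Myeloid markers were at 128 to 394 CPM against 16 to 33.7 CPM, and erythroid markers at 290 to 3475 CPM against 5.21 to 13.7 CPM. Sums of NK cell markers overlapped across genotypes, at 10.2 to 23 CPM against 2.94 to 11.1 CPM, and 1 of these markers, Gzma, rose in WT. Of the 9 myeloid markers only Mpo was at 0 in all 3 libraries of a group (WT at 48 hr). Chd4 did not separate the genotypes at 0 hr, with 99.4, 68.1 and 92.8 CPM in WT and 100, 70.6 and 92.8 CPM in the libraries labelled KO. At 48 hr it was at 102, 96.1 and 123 CPM in WT and 51.3, 38.8 and 74.7 CPM in KO, with no overlap. Xist was at 217 to 293 CPM in WT and 1.56 to 1.59 CPM in KO at 0 hr, so genotype and sex-linked expression cannot be told apart in any difference between WT and KO.

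Among the members, 6 have the letters CACGTG, an E-box bound by MYC, MAX and related factors, between 250 bases before and 50 bases after an annotated start. The windows of 80 bases that hold them are shown for 5 of these genes because they fall on both sides of the response described next: Ldha, Slc16a1 and Pfkm rose at 48 hr, and Pdk2 and Pfkfb2 fell. Sequences are from RefSeq (GRCm38.p6), written 5′ to 3′ on the strand of the gene, with CACGTG in capitals.
Ldha, chr7:46845622-46845701, plus strand: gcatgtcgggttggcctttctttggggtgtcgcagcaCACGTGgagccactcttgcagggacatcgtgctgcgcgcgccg
Ldha, chr7:46845719-46845798, plus strand: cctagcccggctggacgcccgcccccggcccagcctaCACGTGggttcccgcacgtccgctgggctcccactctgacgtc
Slc16a1, chr3:104638427-104638506, plus strand: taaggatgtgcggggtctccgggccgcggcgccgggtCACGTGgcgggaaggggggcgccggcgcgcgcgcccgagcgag
Pfkm, chr15:98092416-98092495, plus strand: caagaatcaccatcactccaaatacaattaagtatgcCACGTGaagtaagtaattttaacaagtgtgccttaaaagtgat
Pdk2, chr11:95041455-95041534, minus strand: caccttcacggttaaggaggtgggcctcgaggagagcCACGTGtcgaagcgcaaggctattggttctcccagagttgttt
Pfkfb2, chr1:130715822-130715901, minus strand: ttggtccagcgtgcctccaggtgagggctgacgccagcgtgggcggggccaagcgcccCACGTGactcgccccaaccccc
The first letter of CACGTG lay 145 and 48 bases before the RefSeq start used for Ldha, 200 bases before that of Slc16a1, 136 before that of Pfkm, 126 before that of Pdk2 and 22 before that of Pfkfb2. The starts used for Ldha and Pfkfb2 are internal, 4329 and 13432 bases downstream of the outermost start of the gene in GENCODE M21, so these windows lie within the annotated genes. Those used for Slc16a1, Pfkm and Pdk2 are within 17 bases of the outermost start. Promoter windows of 300 bases were found for 31 of the 32 members, 47 windows in all. CACGTG was in 6 of the 47 (12.8%), against 7.15% of all 32851 windows in the table. It was in 3 of 33 windows (9.09%) of the 21 members that rose in both genotypes and in 3 of 11 windows (27.3%) of the 7 that fell in both, Pfkfb3 being the third of these. ACGTG, a form of the core of hypoxia response elements that is also part of CACGTG, was in 22 of the 47 windows (46.8%), against 19.6% of all windows. It was in 48.5% of the windows of members that rose and 54.5% of those of members that fell. GCGTG, the other form of that core, was in 25 of the 47 windows (53.2%), against 32.4% of all windows. Both strands were searched, and a match is a run of letters, not a bound site.

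Most genes of the pathway were higher after 48 hr with LPS and IL-4. In WT, 21 of the 32 members rose and 8 fell, where 33% of all tested genes rose and 40.9% fell. In KO, 23 rose and 7 fell, where 33% of all tested genes rose and 37.7% fell. The median log2 fold change of the members was 1.79 in WT and 1.54 in KO, and that of all tested genes was -0.39 and -0.30. In both genotypes, 21 members rose: Slc2a1, Hk1, Hk2, Gpi1, Pfkl, Pfkm, Pfkp, Aldoa, Aldoc, Tpi1, Gapdh, Pgk1, Pgam1, Eno1, Pkm, Ldha, Pdk1, Pdhb, Dlat, Slc16a1 and Slc16a3. The 7 that fell in both were Hk3, Pfkfb2, Pfkfb3, Pfkfb4, Bpgm, Ldhb and Pdk2. Of the rest, Pdk4 was called only in WT, Slc2a3 and Eno2 only in KO, and Eno3 in neither, and the test of the difference between genotypes called none of these 4. The 3 libraries at 48 hr did not overlap with the 3 at 0 hr in 30 members in WT (79.8% of all tested genes) and in 29 in KO (72.5%). The share of all counts that fell on the 32 genes went from 0.363% ± 0.0442 to 1.54% ± 0.0466 in WT and from 0.377% ± 0.0268 to 1.58% ± 0.117 in KO.

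**Figure D1:**
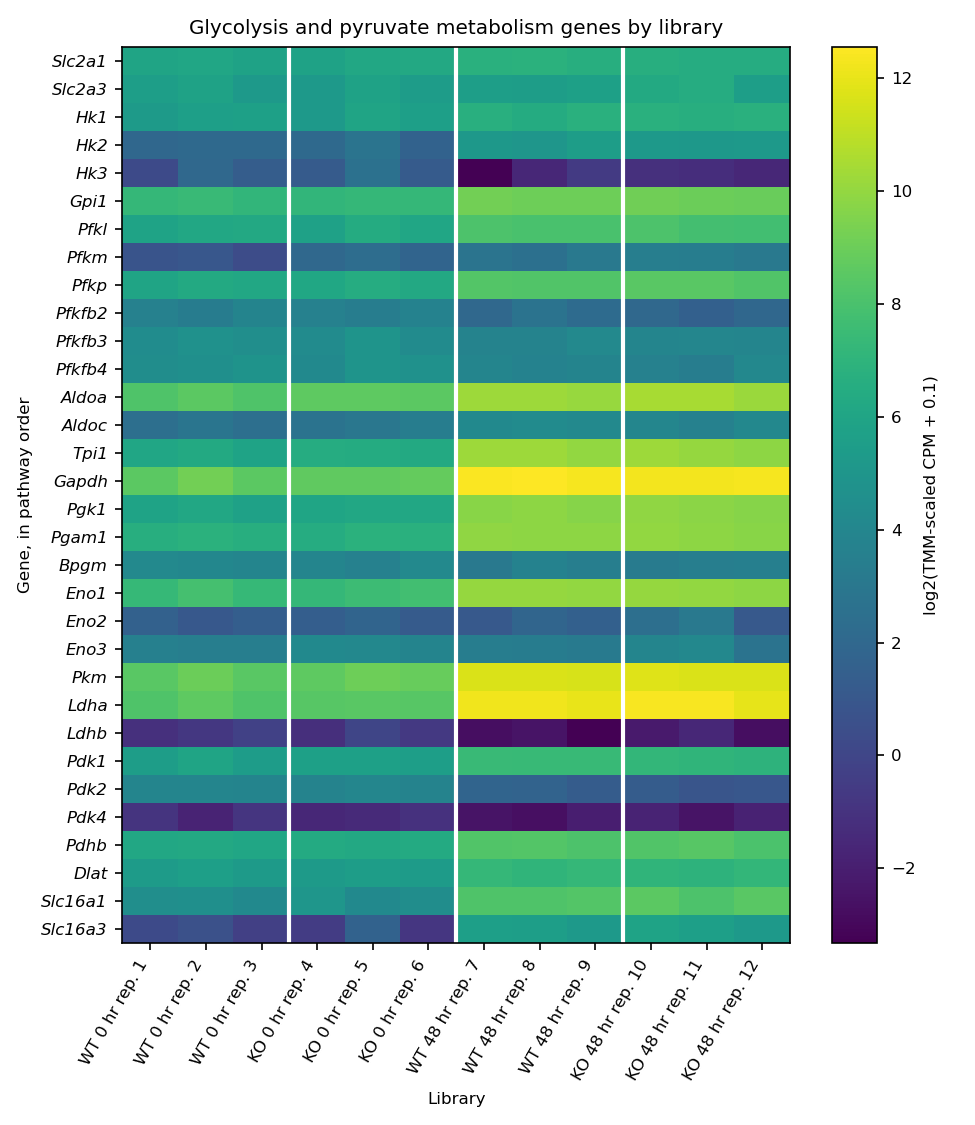
Level of each of the 32 genes in each of the 12 libraries as log2(CPM + 0.1), with genes in pathway order from glucose transporters at the top to lactate transporters at the bottom and white lines between the 4 groups. The 6 libraries at 48 hr are brighter than the 6 at 0 hr for the 21 genes that rose in both genotypes, with Gapdh at 4916 to 6006 CPM and Ldha at 4059 to 5369 CPM the highest.

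The size of the changes over time rests on how libraries were scaled. TMM factors were 1.28 to 1.42 at 0 hr and 0.723 to 0.766 at 48 hr. With library totals alone, the median log2 change of all genes moved by -0.89 in WT and -0.81 in KO, to -1.28 and -1.12. The members then split into 19 higher and 10 lower in WT and 17 higher and 10 lower in KO, and all tested genes into 3603 higher and 11925 lower in WT (6311 and 7827 with TMM) and 3657 higher and 11344 lower in KO (6311 and 7206). Relative to the median gene, 24 members were above it in WT and 23 in KO with TMM, upper-quartile scaling and library totals. A change of scaling moves all genes by nearly the same amount, the median gene included. These counts could therefore hardly differ between scalings, and their agreement is no check of the scaling.

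Glucose enters B cells through facilitative transporters, and here the main carrier Slc2a1 (GLUT1) rose modestly with TMM scaling, a direction that other scalings did not keep. In WT it went from 62.9, 65.9 and 56.1 CPM to 107, 110.5 and 99.9 CPM at 48 hr, and in KO from 55.5, 71.8 and 77.8 CPM to 98.3, 89.1 and 90.9 CPM. The libraries of the time points did not overlap in either genotype. The log2 change was 0.78 (SE 0.12, adjusted p = 7.29e-05) in WT and 0.44 (SE 0.12, adjusted p = 0.0058) in KO. With library totals alone it was -0.11 in WT and -0.37 in KO, where the KO value was a called fall (edgeR adjusted p = 0.00826). The KO rise was also not called with a filter of at least 1 CPM in 3 libraries (edgeR adjusted p = 0.0686). Relative to the median gene it was 1.17 in WT and 0.74 in KO. Slc2a3 (GLUT3), a high-affinity carrier, in WT had 46.9, 57.1 and 36.6 CPM at 0 hr against 47.3, 46.1 and 52.8 CPM at 48 hr, values that overlap. In KO it had 39, 57.5 and 44.2 CPM at 0 hr against 81.5, 91.6 and 46.9 CPM at 48 hr, with replicate 12 inside the range at 0 hr and replicates 10 and 11 above it. Its log2 change was 0.06 (SE 0.23) in WT and 0.64 (SE 0.23, adjusted p = 0.0205) in KO. With library totals alone it was -0.82 in WT, a called fall (edgeR adjusted p = 0.00399), and -0.17 in KO. The call in KO was lost in 4 fits that each left out 1 library (KO 0 hr replicate 4 or 6, KO 48 hr replicate 10 or 11), with adjusted p values of 0.0547 to 0.152.

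Hexokinases trap glucose inside the cell by phosphorylating it, and their makeup changed. Hk2, the inducible form that binds mitochondria, was at 3.86, 4.19 and 4.15 CPM in WT at 0 hr and at 35.8, 32.2 and 45.6 CPM at 48 hr. In KO it was at 4.2, 6.81 and 3.13 CPM and then at 37.1, 35 and 36 CPM. Every library at 48 hr was above every library at 0 hr, with fold changes of 9.3 in WT (log2 3.22, SE 0.24, adjusted p = 3.71e-08) and 7.64 in KO (log2 2.93, SE 0.24, adjusted p = 8.73e-08). Hk1, the form found in most tissues, went from 40.2, 50.5 and 51.5 CPM to 102, 87.1 and 107 CPM in WT and from 37.2, 61.5 and 50.4 CPM to 109, 99 and 107 CPM in KO. Its log2 change was 1.06 in WT and 1.08 in KO, but 0.17 and 0.26 with library totals alone, where neither was called. Hk3, a hexokinase of myeloid cells, fell from 1.09, 3.93 and 2.42 CPM to 0, 0.243 and 0.537 CPM in WT (log2 -3.24, SE 0.77, adjusted p = 0.00182) and from 2.22, 6.01 and 2.29 CPM to 0.369, 0.317 and 0.233 CPM in KO (log2 -3.50, SE 0.76, adjusted p = 0.000983). Its highest value, in KO 0 hr replicate 5, was in the library with the highest summed myeloid markers (394 CPM), and the next highest, in WT 0 hr replicate 2, in the library with the next highest (254 CPM). The part of these cells in the fall of Hk3 was not tested. In bulk samples, fewer cells of a type and less RNA per cell cannot be told apart.

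Counts were also divided by transcript length and scaled to the same sum in every library (length-scaled CPM, without TMM), so that isozymes of a step can be set against each other as shares of its summed level. On that scale Hk1 was the main hexokinase throughout, at 87.6% ± 2.07 of the hexokinase level in WT at 0 hr and 74.2% ± 2.06 at 48 hr, and at 85.6% ± 4.05 and 76.2% ± 0.505 in KO. Hk2 went from 6.84% ± 0.769 to 25.5% ± 1.85 in WT and from 7.28% ± 1.96 to 23.6% ± 0.466 in KO. Its share rose by 17.5 percentage points averaged over genotypes (exact permutation test over libraries within genotype, two-sided, p = 0.005, adjusted p = 0.0075 over the 9 steps with several isozymes; 400 arrangements, for which 0.005 is the smallest p), and all 6 libraries at 48 hr were above all 6 at 0 hr. Hk3 held 5.52% ± 2.66 in WT and 7.17% ± 2.55 in KO at 0 hr and at most 0.452% in any library at 48 hr. The summed level of the step changed little on this scale, with a ratio of 48 hr to 0 hr of 1.13 in WT and 1.16 in KO.

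Gpi1, which converts glucose phosphate to fructose phosphate and has no isozyme in the list, rose from 152, 173 and 139 CPM to 571, 529.9 and 528 CPM in WT and from 142, 151 and 154 CPM to 548, 517 and 495 CPM in KO. The log2 changes were 1.81 (SE 0.10) and 1.80 (SE 0.10).

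Phosphofructokinase commits sugar to glycolysis, and its 3 subunit genes all rose. Pfkp, the platelet-type subunit, went from 61.8, 79.8 and 74.4 CPM to 312, 305 and 309 CPM in WT and from 71.7, 90.3 and 77.3 CPM to 362, 354 and 309 CPM in KO, log2 changes of 2.10 and 2.10. Pfkl, the liver-type subunit, went from 58.8, 72 and 77.1 CPM to 278, 255 and 258 CPM in WT and from 54, 85.6 and 68 CPM to 280.5, 219.7 and 217 CPM in KO, log2 changes of 1.93 and 1.79. Together they made up nearly the whole step in every library. Pfkp held 52.5% ± 1.56 of the step in WT at 0 hr and 55.3% ± 0.875 at 48 hr, and 54.1% ± 2.58 and 59.8% ± 2.56 in KO, a rise of 4.24 percentage points (exact permutation test, p = 0.005, adjusted p = 0.0075).

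Pfkm, the muscle-type subunit (mm10 chr15:98092589-98132451), was the only member called between genotypes. At 0 hr it was at 1.63, 1.92 and 1.19 CPM in WT and 4.08, 4.94 and 3.31 CPM in KO, so every KO library was above every WT library. The log2 difference was 1.38 (SE 0.25, edgeR adjusted p = 0.0165), a 2.6-fold higher level, among 0.68% of all tested genes that were higher in KO at 0 hr. At 48 hr it was at 6.82, 5.64 and 8.54 CPM in WT and 11.2, 10.5 and 8.38 CPM in KO, where WT replicate 9 was above KO replicate 12, and the log2 difference was 0.51 (95% interval -0.01 to 1.03, adjusted p = 0.355). Pfkm rose over time in both, by 2.15 in WT and 1.28 in KO on the log2 scale, but with library totals alone the KO change was 0.46 and was not called (adjusted p = 0.105). The difference between these responses was -0.86 (95% interval -1.61 to -0.12, adjusted p = 0.502). Its share of the step was 1.41% ± 0.372 in WT and 3.38% ± 0.567 in KO at 0 hr, and 1.52% ± 0.313 and 2.11% ± 0.139 at 48 hr, so the gene in question was a minor isozyme in all groups. The call at 0 hr was lost on leaving out WT replicate 1 (adjusted p = 0.0778), WT replicate 3 (0.108) or KO replicate 5 (0.0544), and when only the 6 libraries at 0 hr were fitted (0.0907), with log2 differences of 1.21 to 1.40.

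The bifunctional PFK2/FBPase2 enzymes make and break the fructose bisphosphate that activates phosphofructokinase, and all 3 listed genes fell. Pfkfb2, the heart-type enzyme, went from 12.4, 10.1 and 14.1 CPM to 4.04, 6.54 and 4.68 CPM in WT and from 12.3, 10.6 and 13 CPM to 4.04, 2.85 and 3.79 CPM in KO, log2 changes of -1.26 (SE 0.22) and -1.75 (SE 0.23). Pfkfb3, the inducible form with high kinase activity, went from 21.2, 26.5 and 22.7 CPM to 13.5, 13.4 and 17.8 CPM in WT (log2 -0.65, adjusted p = 0.00411) and from 20.5, 29.3 and 19.9 CPM to 14.8, 15.7 and 14.9 CPM in KO (log2 -0.62, adjusted p = 0.00585). Pfkfb4 went from 21.5, 24.3 and 27.9 CPM to 15, 12.9 and 14 CPM in WT (log2 -0.81, adjusted p = 0.00226) and from 18.8, 29.8 and 25.9 CPM to 12.6, 10.6 and 17 CPM in KO (log2 -0.89, adjusted p = 0.00126). Libraries of the time points did not overlap for any of the 3 genes in either genotype. Relative to the median gene, which itself was lower at 48 hr, the log2 changes in WT and KO were smaller. They were -0.87 and -1.45 for Pfkfb2, -0.26 and -0.32 for Pfkfb3 and -0.42 and -0.59 for Pfkfb4. Pfkfb3 held the largest share of the step, 45.8% ± 4.73 in WT and 45.3% ± 4.81 in KO at 0 hr and 51.6% ± 4.73 and 56% ± 5.76 at 48 hr. That rise of 8.18 percentage points passed the exact permutation test (p = 0.025, adjusted p = 0.0281), but not with the longest transcript as length (6.04 points, adjusted p = 0.0563) and not when any of WT 0 hr replicate 1, WT 0 hr replicate 3, KO 0 hr replicate 6 and WT 48 hr replicate 9 was left out (adjusted p = 0.0506 in each). Pfkfb1, a further gene of this family that is not a member, rose from 2.32 to 8.52 CPM in WT and from 1.83 to 8.87 CPM in KO (group means). With Pfkfb1 counted in the step, the share of Pfkfb3 changed by -4.07 percentage points (exact permutation test, adjusted p = 0.195), and Pfkfb1 held 25.6% ± 6.41 in WT and 27.8% ± 2.32 in KO at 48 hr. The direction of the Pfkfb3 share therefore depends on which genes are counted.

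Aldolase splits the bisphosphate sugar, and Aldoa carried nearly all of it. Aldoa went from 289, 379.7 and 292 CPM to 1184, 1195 and 1099.6 CPM in WT and from 387, 388 and 372 CPM to 1434, 1408 and 1163 CPM in KO, log2 changes of 1.86 (SE 0.13) and 1.80 (SE 0.13). It was 98.2% to 99.4% of the step in every library. Aldoc, the brain-type enzyme, went from 5.55, 6.98 and 5.53 CPM to 18.8, 20.5 and 17.4 CPM in WT and from 6.63, 7.89 and 10.6 CPM to 15.3, 12.2 and 16.9 CPM in KO, log2 changes of 1.65 (SE 0.20) and 0.82 (SE 0.20). The KO call did not hold with upper-quartile scaling (0.20) or library totals alone (0.01). The difference between the Aldoc responses was -0.83 (95% interval -1.42 to -0.23) and did not pass (adjusted p = 0.398). The share of Aldoa rose by 0.43 percentage points (exact permutation test, p = 0.005, adjusted p = 0.0075).

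Large rises of abundant genes lay between triose phosphates and pyruvate. Tpi1, which interconverts the triose phosphates, went from 66.6, 80 and 59.7 CPM to 1181, 1221 and 1015 CPM in WT and from 89.7, 85.4 and 79.8 CPM to 1185, 1053 and 911 CPM in KO. These were 16.6-fold and 12.4-fold rises (log2 4.05, SE 0.15, adjusted p = 6.21e-11; log2 3.63, SE 0.15, adjusted p = 1.2e-10). Their difference, -0.42 (95% interval -0.83 to -0.02), did not pass (adjusted p = 0.553). Gapdh, the dehydrogenase that makes NADH and is often used as a reference gene, went from 383, 575 and 376 CPM to 5641, 6006 and 5237 CPM in WT and from 402, 418 and 439 CPM to 5056, 4916 and 5174 CPM in KO. Its log2 change was 3.66 (SE 0.16) in WT and 3.59 (SE 0.16) in KO, so it was 12.7-fold and 12-fold higher. Pgk1, the first step that yields ATP, lies on chromosome X (mm10 chrX:106187100-106203699). It went from 59.5, 72.6 and 55.3 CPM to 842, 933 and 807 CPM in WT and from 64.9, 72.3 and 72.1 CPM to 962, 901 and 808 CPM in KO, log2 changes of 3.78 (SE 0.13) and 3.67 (SE 0.13). Pgam1, the mutase, went from 98, 114 and 97.8 CPM to 954, 923 and 937 CPM in WT and from 91.5, 111 and 106 CPM to 1028, 920.5 and 839 CPM in KO, log2 changes of 3.18 and 3.18. In all 4 genes every library at 48 hr was above every library at 0 hr. Gapdh, Pgk1, Pgam1, Tpi1 and Ldha have processed pseudogenes, so the share of reads assigned to each is uncertain.

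Bpgm, which diverts an intermediate to bisphosphoglycerate and is best known from red blood cells, fell slightly. It went from 18, 16.2 and 14.8 CPM to 8.34, 13 and 11.2 CPM in WT (log2 -0.59, SE 0.19, adjusted p = 0.0116) and from 15.1, 12.2 and 17.5 CPM to 9.8, 10.9 and 11.4 CPM in KO (log2 -0.48, SE 0.19, adjusted p = 0.0343). Relative to the median gene its log2 change was -0.20 in WT and -0.18 in KO. The WT call was lost without WT 48 hr replicate 7 (-0.42, adjusted p = 0.0621), and the KO call without KO 0 hr replicate 4, KO 0 hr replicate 6 or KO 48 hr replicate 10 (adjusted p = 0.0655 to 0.142). Summed erythroid markers fell from 290 to 3475 CPM at 0 hr to 5.21 to 13.7 CPM at 48 hr. In KO at 0 hr, replicates 4, 5 and 6 had erythroid sums of 3475, 290 and 868 CPM beside the Bpgm values above. Their part in the fall was not tested.

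Enolase makes phosphoenolpyruvate, and here the ubiquitous Eno1 gained on the muscle and neuronal forms. Eno1 went from 162, 230.5 and 159.8 CPM to 1066, 1046 and 995 CPM in WT and from 152, 191 and 212 CPM to 1059, 995 and 938 CPM in KO, log2 changes of 2.49 (SE 0.16) and 2.43 (SE 0.16). A near-identical copy, Eno1b, which is not a member, took 67.7% to 70.6% of the counts assigned to the pair in every library, so the level of Eno1 itself is uncertain. Eno3, the muscle form, stayed uncalled, at 11.7, 10.9 and 10.8 CPM and 10.4, 10.1 and 8.67 CPM in WT and 18.8, 16.7 and 14.2 CPM and 14.8, 16.8 and 6.51 CPM in KO. Eno2, the neuronal form, was at 2.93, 1.98 and 2.62 CPM and 2.06, 3.54 and 2.76 CPM in WT and 2.62, 3.4 and 2.22 CPM and 5.35, 8.63 and 2.07 CPM in KO. The call of Eno2 in KO (log2 0.96, SE 0.41, adjusted p = 0.0479) was lost in 10 of the 12 fits that left out 1 library, among them that without KO 48 hr replicate 11 (log2 0.39, adjusted p = 0.395). Eno1 held 91.3% ± 1.86 of the step in WT and 88% ± 3.17 in KO at 0 hr, and 98.5% ± 0.0884 and 97.9% ± 0.907 at 48 hr. The rise of 8.56 percentage points passed the exact permutation test (p = 0.005, adjusted p = 0.0075), and with Eno1b counted in it was 3.02 points (adjusted p = 0.0075).

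Pkm, the pyruvate kinase of most tissues, closes the chain and rose from 356, 503 and 366 CPM to 3262, 3175 and 3121 CPM in WT and from 392, 528 and 461 CPM to 3496, 3281 and 3219 CPM in KO. These were 7.8-fold and 7.24-fold rises (log2 2.96, SE 0.15, and 2.86, SE 0.15). A single transcript took 91.7% to 93.5% of the Pkm counts at 0 hr and 97.1% to 98.6% at 48 hr. Which splice form of the enzyme it encodes was not settled here.

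Lactate dehydrogenase regenerates NAD by turning pyruvate to lactate, and Ldha was the only form of note. Ldha (mm10 chr7:46841475-46855627), which holds the CACGTG runs shown above before an internal start, went from 286, 393 and 287 CPM to 4749.9, 4837 and 4203 CPM in WT and from 349.5, 360.1 and 338 CPM to 5302, 5369 and 4059 CPM in KO. It was 14.3-fold higher in WT (log2 3.84, SE 0.16, adjusted p = 1.56e-10) and 14.1-fold higher in KO (log2 3.81, SE 0.16, adjusted p = 1.73e-10). Ldhb, the heart-type subunit, was already near the limit of detection at 0 hr, with 20, 25 and 43 counts in WT and 18, 59 and 36 in KO. It fell to 2, 3 and 0 counts in WT (log2 -3.54, SE 0.79, adjusted p = 0.0012) and 5, 9 and 2 counts in KO (log2 -2.10, SE 0.68, adjusted p = 0.0132). The KO call was lost without KO 0 hr replicate 5 (-1.65, adjusted p = 0.0658). Ldhb made up 0.119% to 0.32% of the step at 0 hr and at most 0.00539% at 48 hr.

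Lactate crosses the cell membrane through monocarboxylate transporters, and both transporters among the members rose from low levels. Slc16a1 (MCT1) went from 22.7, 23.6 and 18.1 CPM to 295, 289 and 310.3 CPM in WT and from 31.9, 18.8 and 22.2 CPM to 374, 278 and 358 CPM in KO, 13.9-fold and 13.9-fold. Slc16a3 (MCT4), a low-affinity exporter of glycolytic cells, went from 1.07, 1.42 and 0.72 CPM to 49.2, 48.6 and 36.1 CPM in WT and from 0.608, 3.11 and 0.47 CPM to 58.2, 49.3 and 36.5 CPM in KO. Its log2 changes of 5.38 (SE 0.56, adjusted p = 1.17e-06) and 5.09 (SE 0.55, adjusted p = 1.66e-06) were the largest of the 32 members. The value of 3.11 CPM at 0 hr was in KO replicate 5, the library with the highest myeloid markers. Slc16a1 held 91.7% ± 1.61 of the transport step in WT and 89.8% ± 11.5 in KO at 0 hr, and 78.3% ± 3.42 and 79% ± 4.58 at 48 hr. Between these members its share dropped by 12.1 percentage points (exact permutation test, p = 0.015, adjusted p = 0.0193). Slc16a7 (MCT2), a high-affinity transporter of the family that is not a member, fell from 7.22 ± 0.496 to 1.58 ± 0.223 CPM in WT (log2 -2.19, SE 0.33, adjusted p = 4.54e-05) and from 9.12 ± 0.771 to 2.39 ± 1.22 CPM in KO (log2 -1.93, SE 0.32, adjusted p = 0.00012). It held 35.5% ± 2.07 of the step in WT and 38% ± 5.95 in KO at 0 hr when counted in, and under 1% on average at 48 hr. The share of Slc16a1 then turned from a drop to a rise of 20.6 percentage points (adjusted p = 0.00562), from 59.1% ± 1.17 to 77.7% ± 3.47 in WT and from 55.7% ± 9.61 to 78.2% ± 4.9 in KO. The mean share of Slc16a3 was higher at 48 hr either way, going from 5.39% ± 1.18 to 21.6% ± 3.38 in WT and from 6.29% ± 7.03 to 20.8% ± 4.44 in KO with Slc16a7 included.

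**Figure D2:**
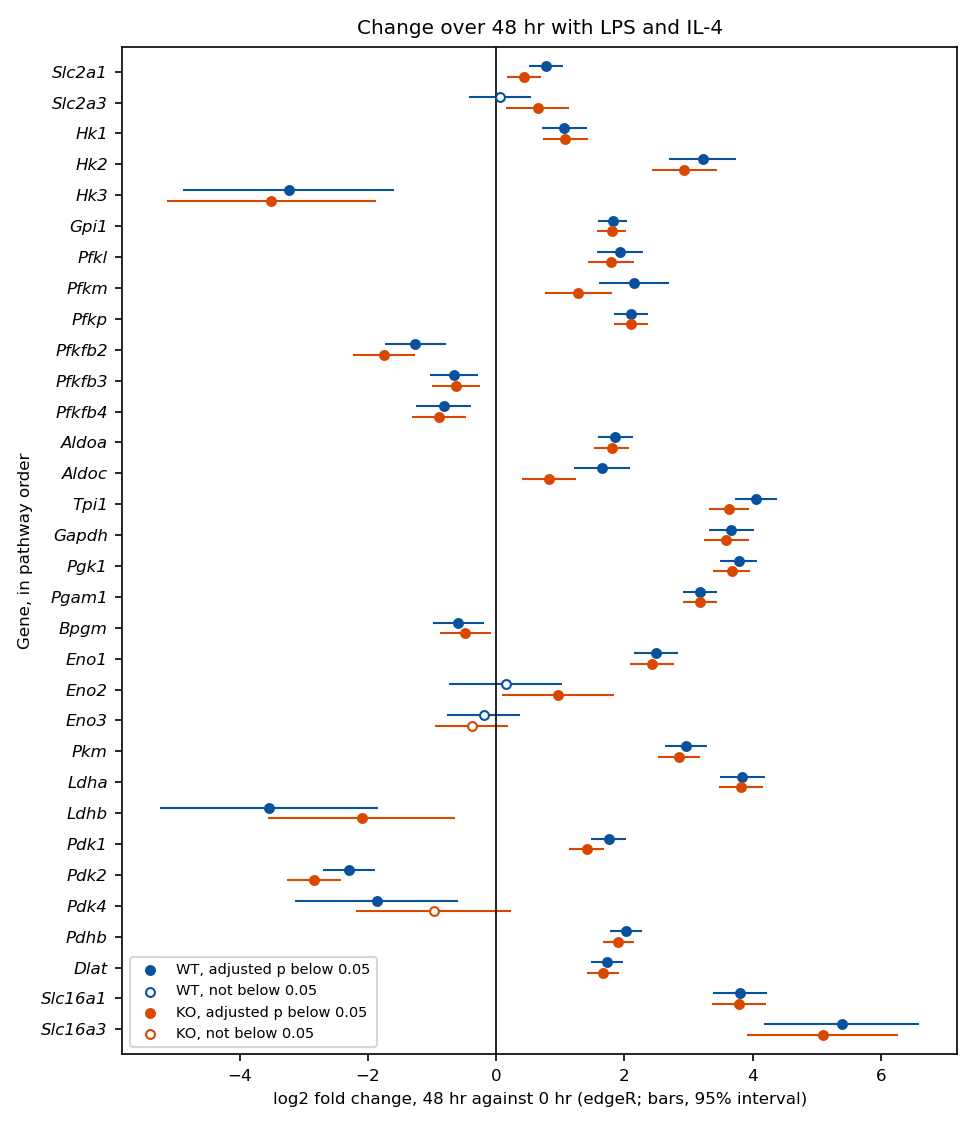
Log2 fold change of each of the 32 genes at 48 hr against 0 hr in WT (blue) and KO (orange), with 95% intervals from edgeR, filled where the adjusted p was below 0.05. Slc16a3 lies farthest right at 5.38 in WT and 5.09 in KO, and Hk3, Ldhb and Pdk2 lie farthest left.

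Pyruvate dehydrogenase lets pyruvate into the citric acid cycle, and both listed subunits rose. Pdhb, a subunit of its first enzyme, went from 74.4, 77.8 and 67.6 CPM to 301, 318 and 276 CPM in WT and from 82.4, 75.5 and 84.3 CPM to 299.8, 340.3 and 268 CPM in KO, log2 changes of 2.03 and 1.91. Dlat, the acetyltransferase core, went from 41.9, 49.6 and 40.8 CPM to 153, 134 and 151 CPM in WT and from 40.4, 45 and 41.1 CPM to 132, 123 and 148 CPM in KO, log2 changes of 1.73 and 1.67. Both had no overlap between time points.

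The kinases that inactivate the complex moved in opposite directions. Pdk1 (mm10 chr2:71873224-71903858), a target of the hypoxia pathway, rose from 45.3, 62 and 44.2 CPM to 175, 169 and 168 CPM in WT (log2 1.76, SE 0.13, adjusted p = 2.88e-08) and from 52.3, 51.9 and 47 CPM to 144, 134 and 125 CPM in KO (log2 1.41, SE 0.13, adjusted p = 2.68e-07). Pdk2 fell from 14.7, 15.1 and 14.5 CPM to 3.42, 3.24 and 2.38 CPM in WT (log2 -2.29, SE 0.19, adjusted p = 1.09e-07) and from 13.4, 15.3 and 13.7 CPM to 2.32, 1.71 and 1.89 CPM in KO (log2 -2.83, SE 0.20, adjusted p = 1.78e-08). Time points did not overlap for either gene. Pdk4, a kinase of fasting, was barely detected, with 10 to 26 counts in each library at 0 hr and 2 to 8 at 48 hr, and fell in WT (log2 -1.86, adjusted p = 0.0118). In KO its change was -0.97 (95% interval -2.18 to 0.23, adjusted p = 0.134). Among these 3 genes, Pdk1 went from 58.9% ± 4.17 of the step to 96% ± 0.6 in WT and from 60.4% ± 1.92 to 96.6% ± 0.429 in KO, a rise of 36.6 percentage points that was the largest of the 9 steps (exact permutation test, p = 0.005, adjusted p = 0.0075). Pdk2 made up nearly all of the rest, at 40.4% ± 3.88 in WT at 0 hr and 3.91% ± 0.644 at 48 hr.

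That shift depends on which kinases are counted. Pdk3, the fourth kinase, is not among the members and lies on chromosome X. It rose from 22.5, 33.9 and 25.2 CPM to 123, 118 and 121 CPM in WT (log2 2.15, SE 0.14, adjusted p = 9.23e-09) and from 27.0, 27.8 and 31.3 CPM to 123, 143 and 128 CPM in KO (log2 2.19, SE 0.14, adjusted p = 8.14e-09). Of the 4 kinases together, Pdk3 held 40.8% to 49.2% at 0 hr and 62.2% to 71.7% at 48 hr. Pdk1 held 33.2% ± 1.44 in WT at 0 hr and 36% ± 0.238 at 48 hr, and 32.8% ± 2.44 and 29.2% ± 2.33 in KO. With Pdk3 included the share of Pdk1 changed by -0.40 percentage points (exact permutation test, adjusted p = 0.785). Pdk2 went from 22.8% ± 3.06 to 1.47% ± 0.258 in WT and from 21.2% ± 1.25 to 0.994% ± 0.186 in KO.

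**Figure D3:**
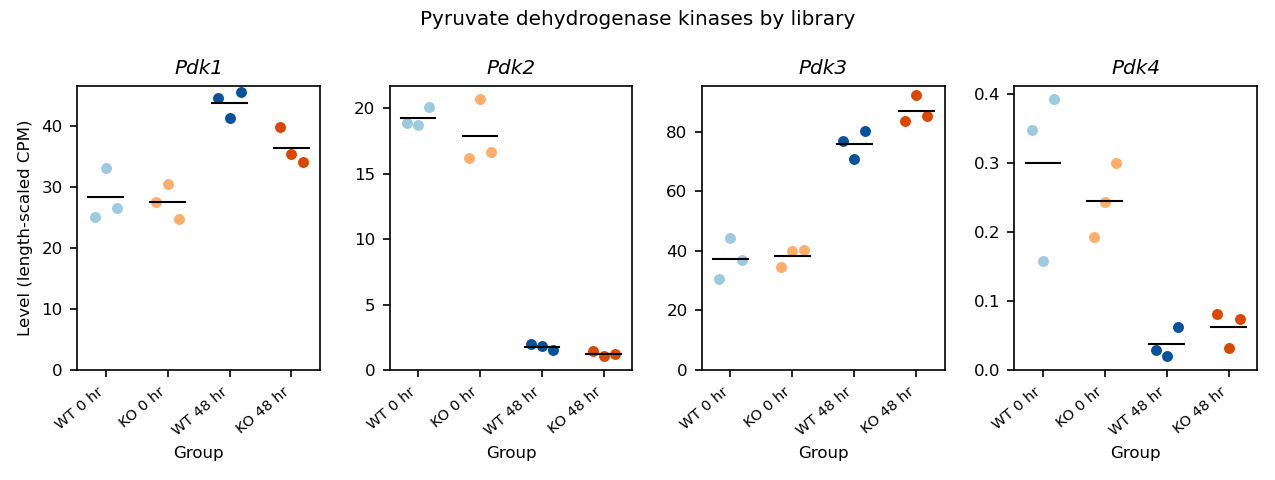
Level in length-scaled CPM of the 4 pyruvate dehydrogenase kinase genes in each library by group, with a line at each group mean and a separate axis for each gene, each starting at 0. Pdk1 and Pdk3 are higher at 48 hr, with Pdk3 at 71 to 92.3 length-scaled CPM, and Pdk2 goes from 16.2 to 20.7 at 0 hr to 1.05 to 2.01 at 48 hr.

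**Figure D4:**
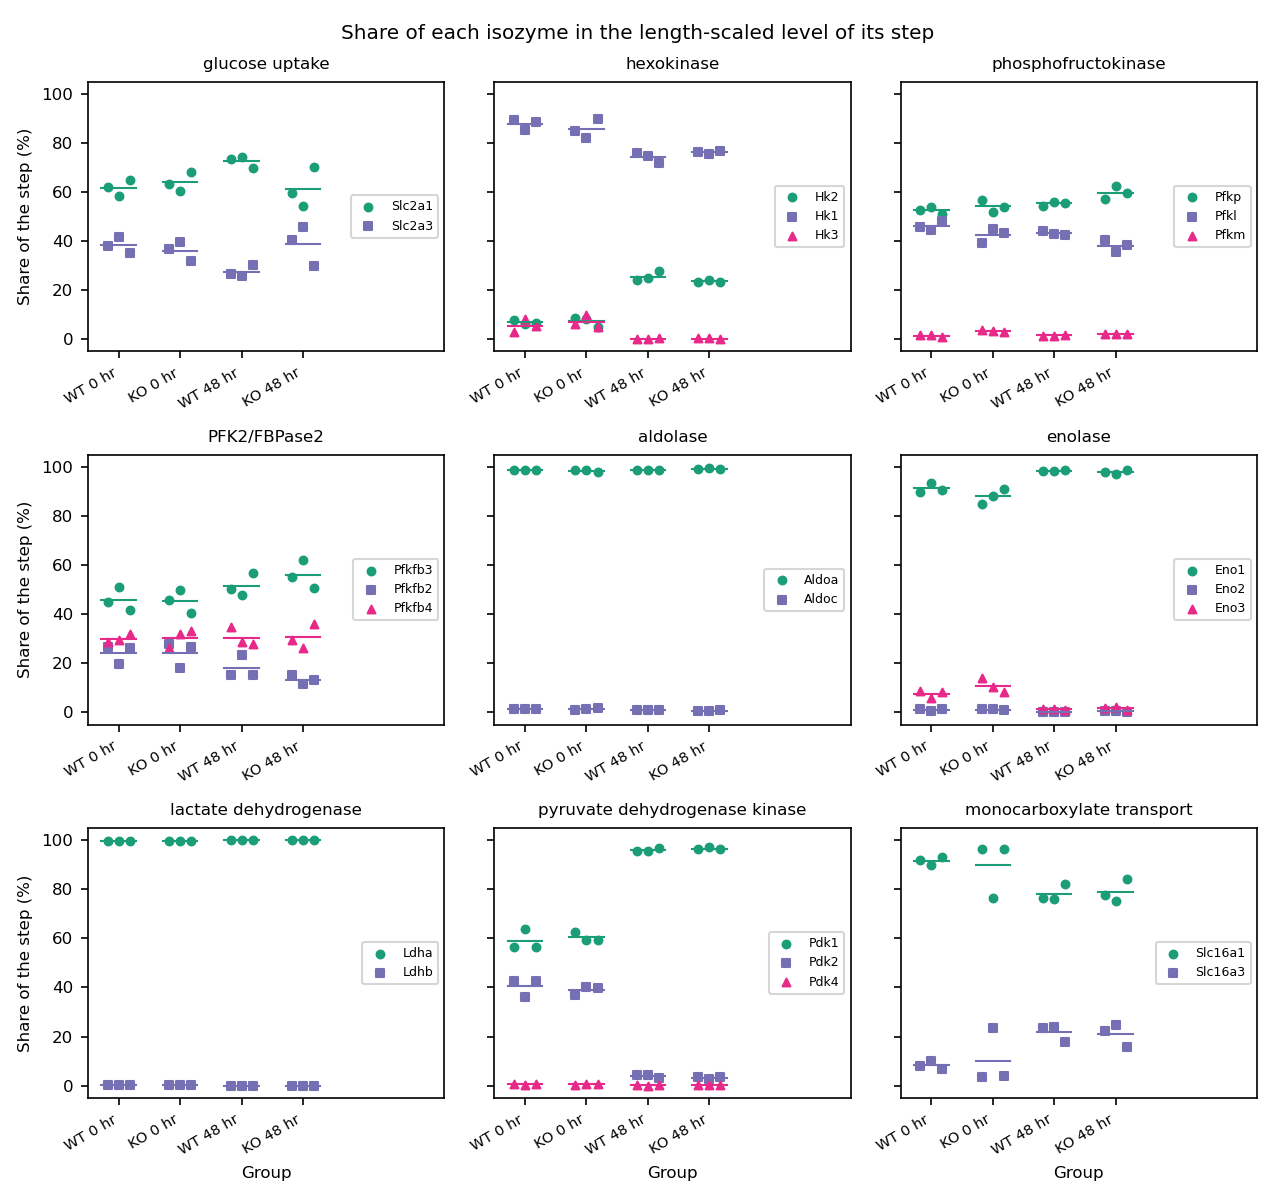
Share of each isozyme, in percent, in the summed length-scaled level of its step for the 9 steps with several listed genes, 3 libraries in each group with a line at the mean. Among the listed genes, Hk2 gains on Hk1, Eno1 on Eno3, Slc16a3 on Slc16a1 and Pdk1 on Pdk2 at 48 hr, while Aldoa and Ldha make up over 98% of their steps in every library.

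The shift between Slc2a1 and Slc2a3 did not pass. Slc2a1 held 61.8% ± 3.36 of the glucose uptake step in WT at 0 hr and 72.4% ± 2.47 at 48 hr, with no overlap, and 63.9% ± 3.96 and 61.3% ± 8.17 in KO, with overlap. The average change was 4.0 percentage points (exact permutation test, p = 0.265, adjusted p = 0.265). In KO at 48 hr the shares were 59.4%, 54.2% and 70.2%, the last being replicate 12, which lay inside the WT range of 69.7% to 74.4%. With 5 further transporters of the lists counted in (Slc2a4, Slc2a5, Slc2a6, Slc2a8 and Slc2a9), the share of Slc2a1 changed by -24.8 percentage points (adjusted p = 0.00562), and Slc2a6 went from 16.9% ± 3.64 to 72.7% ± 0.46 in WT and from 9.75% ± 1.57 to 62% ± 4.69 in KO. Slc2a6 is a lysosomal transporter, so this wider sum is not a measure of glucose entry into the cell. Adding Hkdc1, Eno4 or Ldhc to their steps left the shares of Hk2, Eno1 and Ldha called in the same direction.

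Steps were next compared by their summed length-scaled level, which carries no TMM factor, so that a ratio of 1 means an unchanged share of the library. The ratios of 48 hr to 0 hr were 7.57 in WT and 6.13 in KO for triosephosphate isomerase, 7.45 and 7.89 for monocarboxylate transport, 6.52 and 6.95 for lactate dehydrogenase, 6.3 and 6.32 for phosphoglycerate kinase and 5.81 and 5.97 for Gapdh. Phosphoglycerate mutase followed at 4.15 and 4.47, pyruvate kinase at 3.58 and 3.57 and enolase at 2.39 and 2.4. The upper steps had lower ratios, with phosphofructokinase at 1.85 and 1.91, aldolase at 1.65 and 1.72, Gpi1 at 1.61 and 1.73, hexokinase at 1.13 and 1.16 and glucose uptake at 0.666 and 0.707. The pyruvate dehydrogenase subunits stood at 1.8 and 1.81, and the 3 listed kinases at 0.954 and 0.825. Bpgm at 0.303 and 0.358 and PFK2/FBPase2 at 0.257 and 0.263 were the lowest. These ratios depend on the genes counted. With the further family genes above, monocarboxylate transport was at 4.85 and 4.97 and PFK2/FBPase2 at 0.329 and 0.35. Glucose uptake was at 1.77 and 1.5, where the lysosomal transporter Slc2a6 held most of the summed level at 48 hr. With Pdk3 counted in, the kinases rose from 85.1 to 121.6 length-scaled CPM in WT and from 84.1 to 124.8 in KO (group means). Of the members alone, glucose uptake and hexokinase were among the least abundant steps at 48 hr, at 59.5 ± 2.07 and 47.5 ± 8.22 length-scaled CPM in WT, where Gapdh was at 5870 ± 109 and lactate dehydrogenase at 3843 ± 111.

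**Figure D5:**
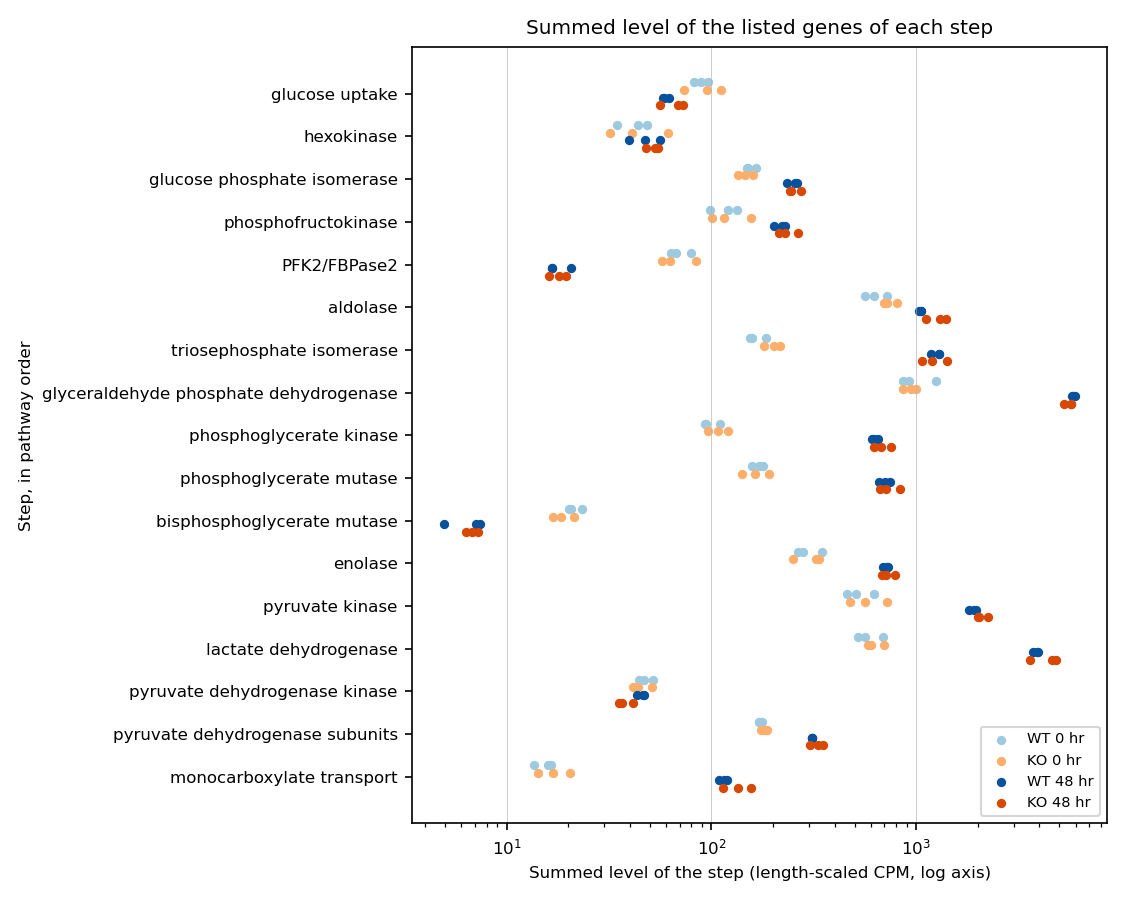
Summed level of the listed genes of each step in length-scaled CPM on a log axis, 1 point for each library, with steps in pathway order from the top. The dark points (48 hr) lie to the right of the light ones (0 hr) from Gpi1 to pyruvate kinase, except in PFK2/FBPase2 and bisphosphoglycerate mutase, and to the left in glucose uptake.

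Few members differed between genotypes. At 0 hr, 1 member was higher in KO (Pfkm, above) and 0 were lower, where 0.68% of all tested genes were higher and 0.429% lower. The member median was 0.12 against -0.001 for all genes, and 4 members had an unadjusted p below 0.05 (Pfkm, Aldoc, Tpi1 and Eno3). Libraries did not overlap in 2 members, Pfkm and Eno3, where 14.9% of all genes did not overlap. Eno3 was at 11.7, 10.9 and 10.8 CPM in WT and 18.8, 16.7 and 14.2 CPM in KO (log2 0.57, SE 0.26, adjusted p = 0.461).

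At 48 hr edgeR called 0 members, where 1.47% of all tested genes were higher in KO and 0.544% lower, and 5 members had an unadjusted p below 0.05 (Slc2a3, Pfkfb2, Eno2, Pdk1 and Pdk2). The member median was 0.02, against 0.01 for all genes. DESeq2 called Pdk2 (log2 -0.67, adjusted p = 0.0168) among 482 genes lower in KO, and the fit of only the 6 libraries at 48 hr called Pdk1 (log2 -0.34, adjusted p = 0.049) among 161. In the fit of all 12 libraries Pdk2 was at 3.42, 3.24 and 2.38 CPM in WT and 2.32, 1.71 and 1.89 CPM in KO, with no overlap (log2 -0.61, 95% interval -1.02 to -0.19, adjusted p = 0.139). Pdk1 was at 175, 169 and 168 CPM and 144, 134 and 125 CPM, also with no overlap (log2 -0.35, 95% interval -0.61 to -0.08, adjusted p = 0.196). KO lay wholly below WT in 6 members (Slc2a1, Pfkfb2, Aldoc, Gapdh, Pdk1 and Pdk2) and wholly above in 0, where 9.53% of all genes lay wholly below and 10.7% wholly above.

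For most of the core enzymes the intervals of the genotype difference at 48 hr were narrow. They were -0.22 to 0.41 for Ldha, -0.24 to 0.37 for Pkm, -0.21 to 0.31 for Pgk1, -0.47 to 0.16 for Gapdh and -0.54 to 0.40 for Hk2 on the log2 scale. The test of whether the response over time differed between genotypes called 0 members, where 0.115% of all tested genes were called, with 3 at an unadjusted p below 0.05 (Pfkm, Aldoc and Tpi1), and DESeq2 also called 0. The time responses and the genotype comparisons share libraries, so their values are set side by side and not correlated.

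KO 48 hr replicate 12 stood apart from the other KO libraries at 48 hr in several members, among them 3 that were called between genotypes without it. Slc2a3 was at 81.5, 91.6 and 46.9 CPM in replicates 10, 11 and 12, against 47.3, 46.1 and 52.8 CPM in WT. Eno2 was at 5.35, 8.63 and 2.07 CPM against 2.06, 3.54 and 2.76 CPM, and Eno3 at 14.8, 16.8 and 6.51 CPM against 10.4, 10.1 and 8.67 CPM. Other members also set replicate 12 apart. Ldha was at 5302, 5369 and 4059 CPM in replicates 10, 11 and 12, Aldoa at 1434, 1408 and 1163 CPM and Pfkp at 362, 354 and 309 CPM. Gapdh was highest in replicate 12, at 5174 CPM against 5056 and 4916 CPM. Replicate 12 also had the most Chd4 of the 3, at 74.7 CPM against 51.3 and 38.8 CPM, and the lowest summed NK cell markers, at 3.06 CPM against 7.91 and 11.1 CPM, with WT at 2.94 to 3.67 CPM. In replicates 10, 11 and 12 that sum was mostly Prf1 (4.73, 6.81 and 1.69 CPM) and Gzma (2.56, 3.48 and 0.985 CPM). The markers Ncr1, Klrb1c and Klrd1 were at 0 to 0.369 CPM in these libraries. Prf1 was itself called higher in KO at 48 hr, so the sum need not follow NK cells. The part of Chd4 or of NK cells in the values of Slc2a3, Eno2 and Eno3 was not tested. Without replicate 12, Slc2a3 (log2 0.83, adjusted p = 0.0224), Eno2 (1.33, adjusted p = 0.0282) and Eno3 (0.70, adjusted p = 0.0302) were called higher in KO at 48 hr. In that fit 720 of 19747 tested genes were called higher and 360 lower, against 282 and 104 of 19125 with all libraries.

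Around the members, other genes of the pathway were counted from lists. Of 29 tested further glycolysis and pyruvate genes, 14 rose and 6 fell in WT and 15 rose and 5 fell in KO, with medians of 0.19 and 0.40. Mpc1, a subunit of the mitochondrial pyruvate carrier, rose by 2.75 in WT and 2.73 in KO on the log2 scale, to 406 and 422 CPM. Slc2a6, a lysosomal hexose transporter, went from 15.5 ± 3.96 to 257 ± 8.77 CPM in WT (log2 4.05, SE 0.19, adjusted p = 3.72e-10), a far larger rise than those of the member transporters Slc2a1 and Slc2a3, whose difference from it was not tested. It was also the only listed gene outside the members called between genotypes, at 8.24, 10.4 and 7.19 CPM in KO at 0 hr against 11.6, 19.5 and 15.3 CPM in WT (log2 -0.85, SE 0.17, adjusted p = 0.0327). At 48 hr it was at 161, 155 and 185 CPM in KO and 254, 266 and 249 CPM in WT (log2 -0.62, SE 0.17, adjusted p = 0.084). Pgk2 (at 0 in all 3 WT libraries at 48 hr) passed the test in WT at a very low level, and Galm, the sugar mutarotase, fell from 2.33 to 0.211 CPM in WT. In KO Galm was at 1.88 and 0.87 CPM and was not called (log2 -1.11, adjusted p = 0.0738).

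Neighbouring pathways moved as well. Of 8 pentose phosphate genes, 7 rose and 1 fell in WT and 6 rose and 1 fell in KO, with medians of 1.66 and 1.32. All 17 tested citric acid cycle genes rose in both genotypes, with medians of 1.67 in WT and 1.59 in KO. Of 23 tested regulators, 11 rose and 5 fell in WT and 10 rose and 6 fell in KO. Myc, which drives many glycolytic genes, went from 91.7 ± 2.84 to 320.5 ± 13.6 CPM in WT and from 88.7 ± 13.7 to 294 ± 22.8 CPM in KO. Txnip, which curbs glucose uptake, fell from 511 ± 54.9 to 89.5 ± 6.25 CPM in WT, and its paralogue Arrdc4 fell by 3.32 on the log2 scale. Egln3, a prolyl hydroxylase induced by hypoxia, rose by 3.94 (SE 0.44), and Hif1a changed by 0.34 in WT (adjusted p = 0.0926) and by 0.50 in KO (adjusted p = 0.0206).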

How the data were processed

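RNA-seq of mouse splenic B cells was analysed from 12 libraries in 4 groups of 3 (WT or CHD4 KO, at 0 hr or after 48 hr). RNA came from a TRIzol and column extraction and was amplified with a SMART-Seq kit, which does not mark strand, before paired-end sequencing, per the labels' protocols. The values are estimated counts per transcript, which the authors deposited as whole numbers. The tools listed were bcl2fastq 2.20.0.422, Trimmomatic 0.36, Salmon 0.8.2 and DESeq2 1.14.1, with the mm10 build, per the submitters' processing notes. Because Salmon divides reads that match several transcripts, near-identical genes are hard to separate.

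Trailing spaces were cut from 344 names, and the 63759 transcripts gave summed counts for 32699 symbols. Genes that passed edgeR's filterByExpr (19125) were fitted in all 12 libraries with 1 coefficient for each of the 4 groups (edgeR 4.0.16, R 4.3.3, TMM scaling, quasi-likelihood F test, robust option, 8 residual degrees of freedom). In simulated data the fit recovered 48% of 2-fold changes for KO against WT at 0 hr, 37% at 48 hr and 24% for the interaction. For 4-fold changes it recovered 72%, 68% and 63%. False calls were 1.14% to 7.69% of calls across contrasts. The changed genes were drawn at random from all tested genes, so recovery for a given member may differ from these rates. A 2-fold difference between genotypes could therefore be missed in some members. The contrasts were 48 hr against 0 hr within each genotype, KO against WT at each time, and their interaction. For shares and levels of isozymes, counts were divided by the median length of a gene's protein-coding transcripts in GENCODE M21, since the table's transcript names carried no length. Lengths were found for 23508 symbols (71.9%), which held 87.9% to 94.2% of counts, and values were scaled to the same sum in every library. Coordinates of genes are from GENCODE M21 (mm10). Shares were compared over time with an exact permutation test within genotype. Between genotypes, 3 libraries against 3 cannot give an exact p below 0.10, so shares are given as values only.

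The members and lists were chosen with earlier results of these data known. All members are named. Other pathway genes are named where called between genotypes, or among the 6 called with the largest change in WT, and 1 gene this rule picks is not reported here. Pdk3, Pfkfb1, Slc16a7, the genes added to a step, Mpc1, Myc, Txnip and Hif1a were named after their values were seen. Alternatives were DESeq2 1.42.0, limma-voom (limma 3.58.1), a likelihood ratio test, other scalings and filters, fits of 6 libraries, leaving out each library, other lengths and Pdk3 added to its step. After seeing the data, Eno1b added to Eno1, further family genes of the lists added to a step, and leaving out KO 0 hr replicate 6 and KO 48 hr replicate 12 together, were also tried.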

Additional observations from a re-analysis of the deposited data

How the results depend on the processing

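Of 3800 values of member fold changes under alternatives, 3737 kept direction and side of the threshold, 41 lost a call, 16 gained one and 6 reversed, where 186 sign changes of values called in neither fit are counted as kept. The reversed values were all of glucose transporters over time. Slc2a1 was at -0.11 in WT with library totals and in KO at -0.19 with upper-quartile scaling and -0.37 with library totals, and Slc2a3 was at -0.61 (upper quartile) and -0.82 (totals) in WT and -0.17 (totals) in KO. The count of members higher in KO at 0 hr was 0 when only the 6 libraries were fitted, 0 to 1 when 1 library was left out, and 2 (Pfkm and Eno3) without both KO 0 hr replicate 6 and KO 48 hr replicate 12. At 48 hr it was 0 to 3 when 1 library was left out and 3 without both. Without both, all genes called higher and lower in KO were 463 and 211 at 0 hr (130 and 82 with all libraries) and 888 and 463 at 48 hr (282 and 104). The count lower at 48 hr was 1 with DESeq2 (482 of all genes) and 1 when only the 6 libraries were fitted (161 of all genes). The share of Pfkfb3 changed by 6.04 percentage points with the longest transcript length, by 6.65 to 9.50 when 1 library was left out, which also leaves fewer arrangements for the test, and by 8.25 without both libraries (adjusted p = 0.0563). The share of Pdk1 changed by -0.40 with Pdk3 added. With further family genes of the lists added, the shares of Pfkfb3 (-4.07), Slc2a1 (-24.8) and Slc16a1 (20.6) turned in direction. The cause was not tested in any of these except where fewer libraries or further genes entered. No paired analysis was possible because the groups share no replicate number. Depth limits Hk3, Ldhb and Pdk4, which had under 25 counts in each library at 48 hr, and 3 libraries a group limit all tests between genotypes.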
